A study of Macaca fascicularis with 3 samples.

Results

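The miRNAs of the imprinted DLK1-DIO3 locus were examined in small RNA libraries from the kidney cortex of 3 untreated (naïve) cynomolgus monkeys (Macaca fascicularis), aged 2 to 3 years, with 1 library per animal. Members were all rows of the deposited raw count table whose stem number belongs to a fixed list of 45 stem numbers of this locus, with any letter, copy number or arm. The rule found 56 of the 432 listed mature miRNAs. miR-376b-5p and miR-376c-5p had identical counts in all 3 libraries and were counted once, which left 55 members from 36 stem numbers. The other 9 stem numbers, those of miR-300, miR-412, miR-541, miR-655, miR-665, miR-668, miR-770, miR-1193 and miR-1197, had no row in the table and are not analysed here. All 3 libraries form a single group with no treated arm, so the comparisons are between miRNAs within a library and between animals.

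The DLK1-DIO3 locus is an imprinted domain of placental mammals. Its protein-coding genes DLK1, RTL1 and DIO3 are expressed from the paternal copy, while the noncoding RNA MEG3, the antisense transcript of RTL1 and a long array of miRNA genes are expressed from the maternal copy. The array is known for high expression in brain, placenta and embryonic tissues and for low expression in most adult epithelia. In the RefSeq gene table for assembly T2T-MFA8v1.1, DLK1, RTL1 and DIO3 lie in that order on the same chromosome. Positions of the miRNA genes were not used here, and neither were mature sequences. From the known order of the human array, members were divided into a MEG3/RTL1-antisense side (the miR-127, miR-136, miR-337, miR-370, miR-431, miR-432, miR-433 and miR-493 rows, 11 members) and a miR-379/miR-410 side (44 members).

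Totals of listed counts were 4305977, 4707892 and 3957188 in animals 1, 2 and 3, and levels are given as CPM, counts per 1000000 listed counts. The library of animal 3 stood apart from the other libraries, with 26 of the 391 miRNAs averaging 10 counts or more lying at least 2 log2 units below the mean of the other libraries, against 2 in animal 1 and 2 in animal 2. The numbers of members called and of wide spans, and the members' median deviations in animals 1 and 2, are therefore also given without it. The orders of the animals and the arm shares are given with all 3 libraries only. The tissue label was matched by miRNAs known from renal tubules (rows of miR-204, miR-215 and the miR-192/miR-194 pair), which took 57055, 61982 and 53073 CPM in animals 1, 2 and 3. Most of this was miR-204-5p, with 47352.6, 53577.1 and 43443.5 CPM. miR-194-5p had 4898, 4437 and 5250 CPM, and miR-215-5p only 24.2, 17.8 and 14.7 CPM. Whether a difference in a bulk sample comes from fewer cells of a type or from less RNA per cell cannot be told apart.

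The locus contributed little to the miRNA content of the cortex. Its members summed to 21275, 19106 and 13012 counts in animals 1, 2 and 3. Their share of the listed counts in animals 1, 2 and 3 was 0.494% (95% Wilson interval 0.488 to 0.501), 0.406% (0.400 to 0.412) and 0.329% (0.323 to 0.335), with a mean of 0.410% ± 0.0827 (SD, n = 3). The intervals did not overlap, so the animals differed beyond counting error, which is all that these intervals cover. Animal 1 exceeded animal 3 by 1.50-fold. The order of the animals did not depend on the most abundant member, since without miR-376c-3p the shares were 0.356% (0.351 to 0.362), 0.286% (0.281 to 0.291) and 0.232% (0.227 to 0.237).

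**Figure D1:**
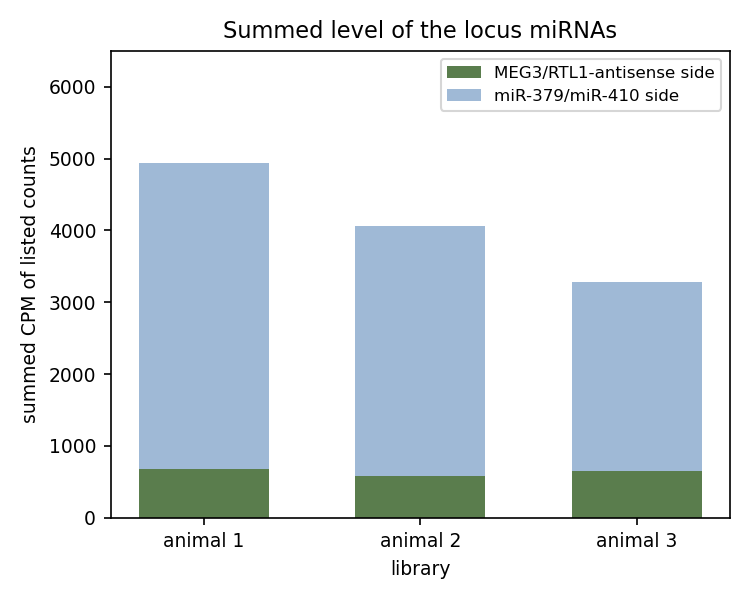
Summed CPM of the locus miRNAs in the library of each animal, divided into the MEG3/RTL1-antisense side (lower part of each bar) and the miR-379/miR-410 side (upper part). The totals are 4941, 4058 and 3288 CPM, and the upper part, from 4259 to 2640 CPM, holds most of the difference between animals.

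Most of the difference between animals 1 and 3 lay on the miR-379/miR-410 side, which summed to 4259, 3478 and 2640 CPM in animals 1, 2 and 3. The MEG3/RTL1-antisense side summed to 682, 581 and 648 CPM. Its share of the locus counts was 13.8% (95% Wilson interval 13.3 to 14.3), 14.3% (13.8 to 14.8) and 19.7% (19.04 to 20.4), or 15.9% ± 3.27 (SD, n = 3). miR-136 alone made up 167 of the 682 CPM in animal 1 and 316 of the 648 CPM in animal 3. Without miR-136 the same side summed to 516, 326 and 333 CPM.

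Marker miRNAs of other cell types were summed beside the locus. The stromal list (miR-199 and miR-214, 5 rows) had 13718, 15224 and 13161 CPM in animals 1, 2 and 3, and the neuron list (miR-9 and miR-124, 4 rows) had 123, 131 and 107 CPM. The muscle list (miR-1, miR-133 and miR-206, 9 rows) had 621, 478 and 454 CPM, mostly through miR-1-3p with 543, 375 and 328 CPM, while miR-133a, miR-133b-3p, miR-133c-3p, miR-133d-3p and miR-206 were highest in animal 3. The vascular list had 78057, 71708 and 85190 CPM (5 rows), the erythroid list 5025, 4374 and 5765 CPM (4 rows), the leucocyte list 1621, 1727 and 1518 CPM (4 rows) and the epithelial list 20903, 20653 and 16281 CPM (6 rows, with no row of miR-200b or miR-141). The sums of the muscle and epithelial lists ran in the order of animals seen for the locus, and those of the other lists did not. Single rows often differed from their sum. In the epithelial list miR-200a-3p ran in that order. However, miR-429-3p was highest in animal 2 (8917, 10491 and 7626 CPM) and miR-200a-5p in animal 3 (44.1, 60.7 and 84.4 CPM). In the erythroid list miR-144 ran in that order (633, 424 and 326 CPM), and miR-451, miR-486-5p and miR-486-3p did not. Unlike the locus members, rows with identical counts were all summed in these lists. The stromal sum holds both miR-199a and miR-199a-5p, each with 2960, 3056 and 3038 CPM in animals 1, 2 and 3. The muscle sum holds both miR-133c-5p and miR-133d-5p, each with 2.55, 1.91 and 1.52 CPM. No row of these lists was at 0 counts in any library. The part of cell makeup in the level of the locus was not tested.

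miRNAs of other imprinted loci gave a comparison at the same depth. From a list of H19, IGF2, MEST, GNAS and chromosome 19 cluster miRNAs, 6 rows were present, those of miR-335, miR-675 and miR-296, and they summed to 954, 1487 and 627 CPM in animals 1, 2 and 3. Almost all of this came from miR-335-5p, processed from an intron of MEST, with 897, 1428 and 588 CPM. This member was highest in animal 2, where the DLK1-DIO3 sum was intermediate. miR-675-3p, processed from H19, had 26.9, 28.3 and 23.5 CPM.

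Of the 55 members, 45 reached 10 counts in every library, or 81.8%, against 81.9% of all 432 listed miRNAs. In single libraries 51, 53 and 46 members reached 10 counts in animals 1, 2 and 3. The share of members detected was thus close to that of the table as a whole, but their levels were lower. Only miRNAs with at least 15 reads were listed, so these shares compare rows already selected for detection. Stem numbers of the locus with no row are not in them. The median of the members' mean levels was 26.6 CPM, against 43.5 CPM over all listed miRNAs. A mean of at least 100 CPM was reached by 10 members (18.2%, against 41.4% of all listed miRNAs), a further 25 members lay between 10 and 100 CPM, and 20 lay below 10 CPM. Only miR-376c-3p and miR-299-5p were among the 100 most abundant of the listed miRNAs (3.64% of members, against 23.1% of the table), at ranks 79 and 97.

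**Figure D2:**
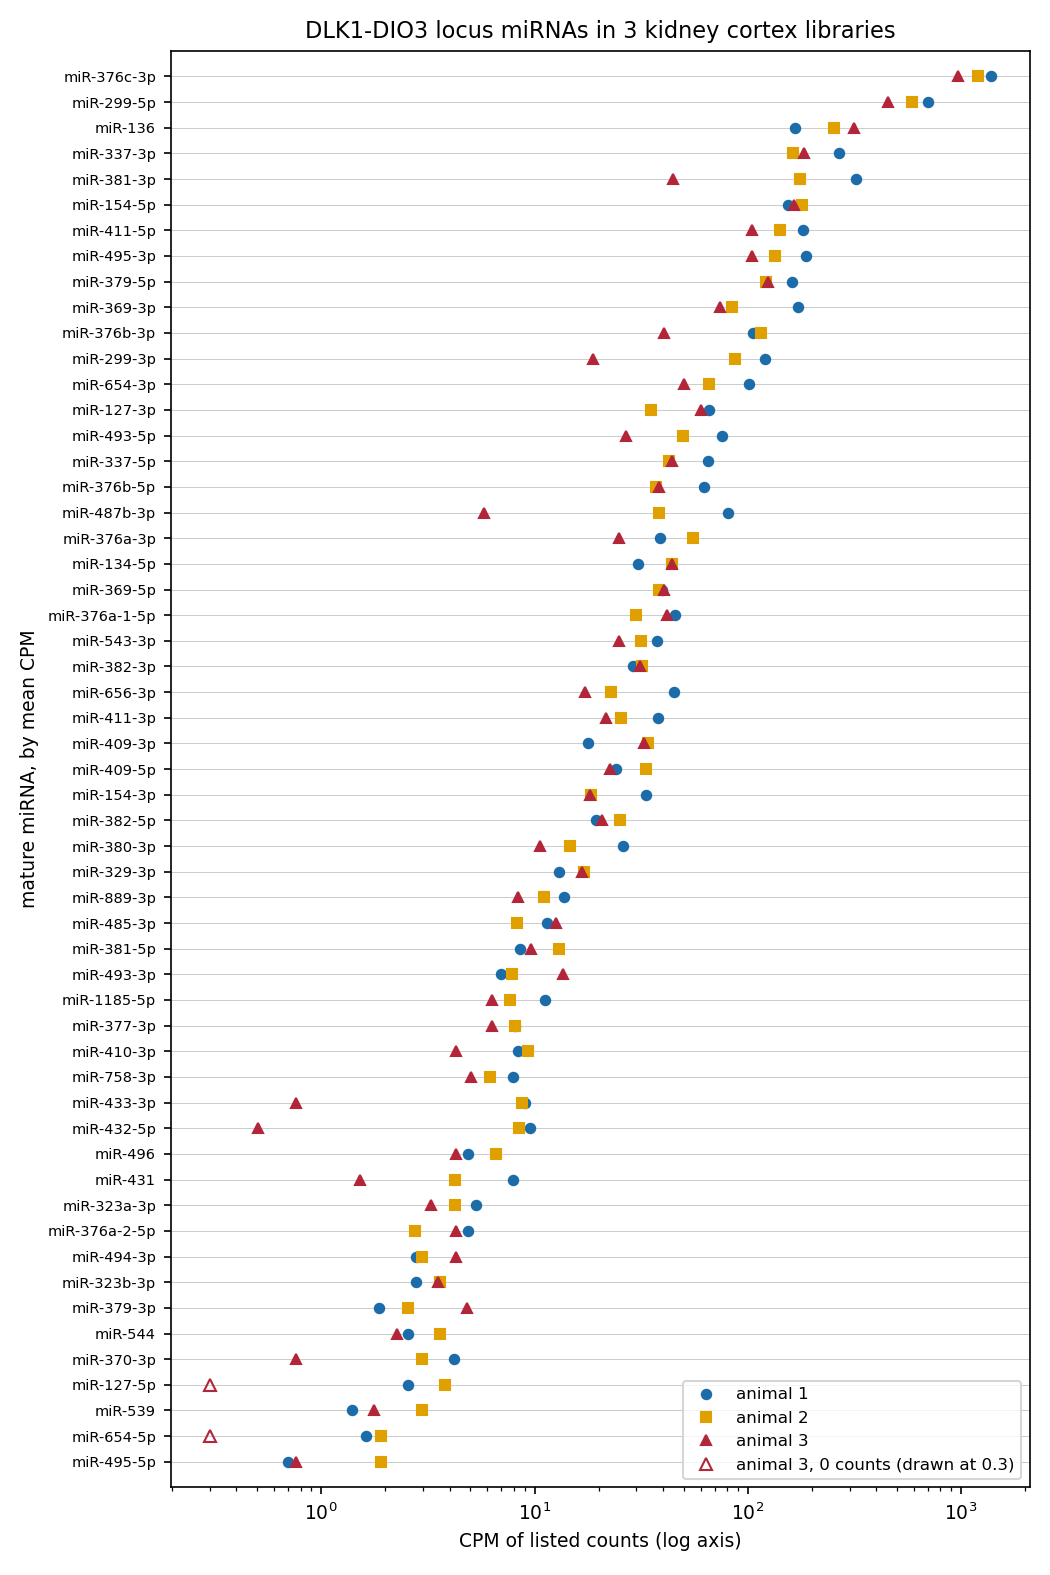
Level of each of the 55 members in the 3 libraries (CPM of listed counts, log axis), ordered by mean CPM, with a marker for each animal. Levels span from 1180 CPM for miR-376c-3p to 1.12 CPM for miR-495-5p as means, and in animal 3 (triangles) a few members such as miR-381-3p, miR-487b-3p and miR-432-5p lie far to the left of the other animals; open triangles mark 0 counts.

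miR-376c-3p was the most abundant member. It belongs to the miR-376 family, whose hairpins lie close together on the miR-379/miR-410 side. It had 5926, 5630 and 3828 counts in animals 1, 2 and 3, or 1376, 1196 and 967 CPM, with a mean of 1180 CPM ± 205 (SD, n = 3). Its share of the locus counts was nearly constant, at 28.9% ± 0.918 (SD, n = 3). miR-299-5p followed with 3017, 2757 and 1789 counts, or 701, 586 and 452 CPM (mean 579 CPM ± 124). Its share of the locus counts was 14.1% ± 0.345. Within each library miR-376c-3p exceeded miR-299-5p by a similar factor, 1.96-fold, 2.04-fold and 2.14-fold in animals 1, 2 and 3, a ratio picked after its values were seen.

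The 5 most abundant members, these 2 with miR-136, miR-337-3p and miR-381-3p, held 58.5% ± 1.20 (SD, n = 3) of the locus counts. Below the leading pair, neighbours in the order of mean levels were not resolved, because their order differed between animals. miR-136 had 167, 255 and 316 CPM in animals 1, 2 and 3, and miR-337-3p had 269, 162 and 184 CPM, so that miR-136 was the lower of these in animal 1 and the higher in animals 2 and 3. miR-381-3p had 320, 175 and 44.5 CPM, ranging from above both of them in animal 1 to below both in animal 3.

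Of the lower members of the top 10, miR-154-5p was the most even and miR-369-3p the least. miR-154-5p had 154, 179 and 164 CPM in animals 1, 2 and 3 (mean 166 CPM ± 12.5, SD, n = 3), the smallest SD relative to the mean among the 10. miR-411-5p had 182, 141 and 105 CPM, miR-495-3p had 187, 133 and 105 CPM, and miR-379-5p had 160, 122 and 125 CPM. miR-369-3p had 172, 83.9 and 74.3 CPM. All of these but miR-154-5p were highest in animal 1.

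The MEG3/RTL1-antisense side holds miRNAs that are transcribed opposite to RTL1 and can cleave its transcript, among them miR-127, miR-136, miR-431, miR-432 and miR-433. Its members differed widely in level. miR-136 had 717, 1199 and 1249 counts, and miR-127-3p had 282, 166 and 238 counts (53.6 CPM ± 16.1, SD, n = 3). miR-431 had 34, 20 and 6 counts, miR-432-5p 41, 40 and 2, and miR-433-3p 39, 41 and 3. Among the 10 most abundant members only miR-136 had its highest CPM in animal 3, whereas miR-431, miR-432-5p and miR-433-3p were lowest there.

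The other members of this side, from miR-337, miR-493, miR-370 and the 5p arm of miR-127, were mostly lower in animal 3 than in animal 1. miR-337-3p had 1157, 764 and 729 counts in animals 1, 2 and 3, and its opposite arm miR-337-5p had 281, 200 and 175, so both arms were highest in animal 1. miR-493-5p had 327, 235 and 106 counts, while miR-493-3p had 30, 37 and 54 and ran in the opposite order. miR-370-3p, from a hairpin between the main groups of the array, had 18, 14 and 3 counts. miR-127-5p had 11, 18 and 0 counts, and a count of 0 in animal 3 allows up to 0.758 CPM.

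The miR-376 family showed a steep internal order. miR-376c-3p exceeded miR-376b-3p by 13.0-fold, 10.4-fold and 23.9-fold in animals 1, 2 and 3, and it exceeded miR-376a-3p by 35.5-fold, 21.6-fold and 39.1-fold. miR-376b-3p had 456, 542 and 160 counts and miR-376a-3p had 167, 261 and 98, so both were highest in animal 2 and lowest in animal 3. miR-376b-3p exceeded miR-376a-3p in all 3 animals, by 2.73-fold, 2.08-fold and 1.63-fold. On the 5p arm, miR-376a-1-5p had 197, 141 and 166 counts and miR-376a-2-5p had 21, 13 and 17, while the shared counts of miR-376b-5p and miR-376c-5p were 269, 174 and 152. The table cannot say how many of those last counts belong to each hairpin, and reads of near-identical family members may be divided between names in a way that is not stated.

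The members around miR-379 and miR-411, at the start of the miR-379/miR-410 side, differed widely in level. miR-411-5p exceeded miR-379-5p by 1.13-fold and 1.15-fold in animals 1 and 2 but was the lower in animal 3, at 0.844-fold, so their order was not resolved. miR-299-5p, from a neighbouring hairpin, exceeded miR-411-5p by 3.86-fold, 4.15-fold and 4.30-fold. miR-380-3p had 112, 69 and 42 counts, miR-323a-3p 23, 20 and 13, miR-758-3p 34, 29 and 20, and miR-329-3p 56, 80 and 66. Mean levels among these neighbouring hairpins thus ran from 579 CPM for miR-299-5p down to 4.29 CPM for miR-323a-3p.

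In the rest of the array, moderate levels were seen for miR-654-3p, with 438, 310 and 198 counts, miR-487b-3p, with 347, 181 and 23, and miR-134-5p, with 132, 207 and 175. miR-134 is known from neurons, where it acts in dendritic spines, and it was present here at 39.6 CPM ± 7.76 (SD, n = 3). miR-485-3p, from another hairpin known from neurons, had 49, 39 and 50 counts. miR-543-3p had 161, 148 and 99 counts, miR-382-5p 84, 119 and 82, miR-382-3p 125, 150 and 123, and miR-656-3p 194, 108 and 68. miR-410-3p, whose hairpin gives this side its name, had only 36, 44 and 17 counts.

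The remaining members were scarce. miR-889-3p had 59, 52 and 33 counts, miR-1185-5p 48, 36 and 25, miR-377-3p 35, 38 and 25, and miR-496 21, 31 and 17. miR-494-3p had 12, 14 and 17 counts, miR-323b-3p 12, 17 and 14, miR-544 11, 17 and 9, and miR-539 6, 14 and 7. miR-495-5p and miR-654-5p, the minor arms of their hairpins, had 3, 9 and 3 and 7, 9 and 0 counts, the lowest sums of the locus. Differences between animals at such counts lie close to counting error.

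Differences between animals were then tested by chi-square, setting the counts of each miRNA against TMM-scaled library sizes (TMM is edgeR's trimmed mean of M values), with Benjamini-Hochberg adjustment over all 391 miRNAs averaging 10 counts or more and a threshold of 0.05. Of the members, 51 passed this minimum, and miR-127-5p, miR-539, miR-654-5p and miR-495-5p did not. The test called 35 of the 51 members (68.6%), against 80.6% of all miRNAs tested. It compares libraries with counting error only, so it depends on depth. Among members averaging 100 counts or more, 27 of 29 were called (93.1%), against 94.2% of all such miRNAs. The 2 members not called at that depth were miR-369-5p, with 170, 180 and 160 counts (adjusted p = 0.332), and miR-382-3p (adjusted p = 0.56). Without animal 1 the calls fell to 19 of 51 (37.3%, against 65.2%). Without animal 2 they were 31 of 51 (60.8%, against 75.4%), and without animal 3 they were 26 of 53 (49.1%, against 59.2%).

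By size, 16 of the 51 members (31.4%) differed more than 2-fold between their extreme animals in TMM-scaled CPM, against 39.9% of all miRNAs tested. The median span was 1.66-fold for the members and 1.71-fold for all. In 13 of the 16 the lowest value was in animal 3 (25.5% of members, against 22.8%), and in 3 it was in animal 1 (5.88%, against 12.8%). Without animal 3, 4 of 53 members spanned more than 2-fold (7.55%, against 8.75%), and these were miR-369-3p, miR-487b-3p, miR-656-3p and miR-539. Without animal 1 the number was 9 of 51 (17.6%, against 23.5%), and without animal 2 it was 16 of 51 (31.4%, against 32.1%). Among members averaging 100 counts or more it was 9 of 29 (31.0%, against 31.7%). The shares without animal 2, without animal 3 and at 100 counts or more were near the background. Most of the members' wide spans needed the library of animal 3. The same held over all miRNAs tested, where the share fell from 39.9% to 8.75% without it, so this was not particular to the locus.

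Levels were then ordered by animal for all 51 members. The highest TMM-scaled level was in animal 1 for 31 of the 51 members (60.8%), against 31.2% of all miRNAs tested. The lowest level was in animal 3 for 28 members (54.9%, against 41.9%), and 23 members (45.1%, against 22.3%) ran from highest in animal 1 to lowest in animal 3. With DESeq2 size factors these numbers were 29, 26 and 21 (against 33, 39.4 and 22.8% of all miRNAs tested), and with totals alone 31, 30 and 24 (against 31.5, 46.8 and 23.3%). The median log2 deviation of the members from the mean of the other libraries was 0.40 in animal 1, -0.06 in animal 2 and -0.27 in animal 3, while the medians over all 391 miRNAs were -0.01, 0.05 and -0.01. Without the library of animal 3, an alternative that was not planned, the members' medians were 0.32 in animal 1 and -0.32 in animal 2. These are a single difference between animals 1 and 2, with its sign reversed by construction. The median over all miRNAs is not given for this setting, so the value has no background beside it. These deviations share libraries and are not independent, and members transcribed together are not replicates.

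**Figure D3:**
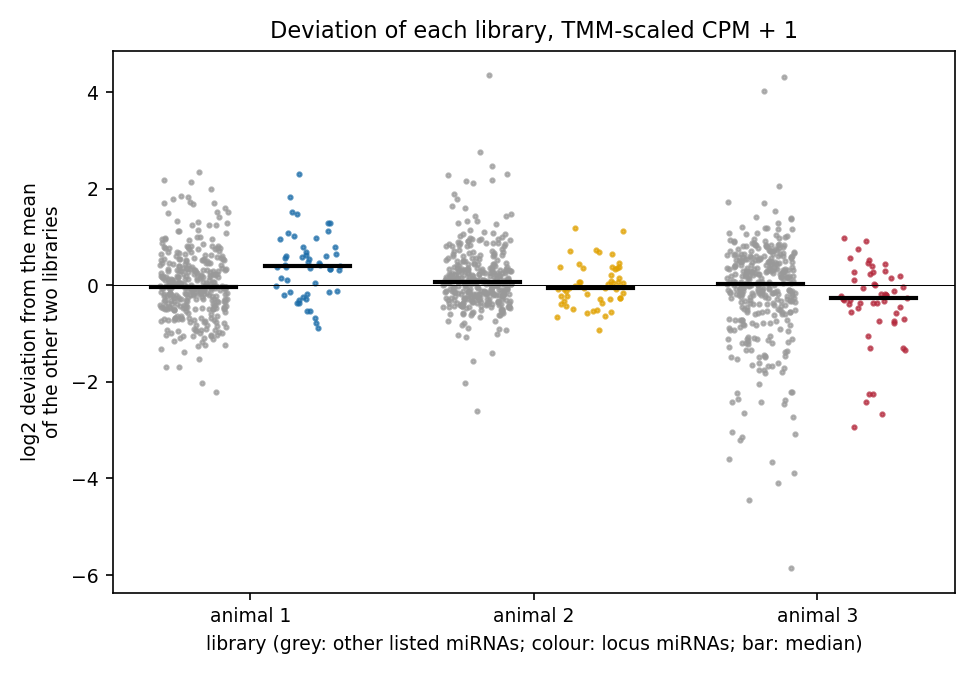
Log2 deviation of each miRNA in each library from the mean of the other libraries (TMM-scaled CPM + 1), for the other listed miRNAs (grey) and the 51 locus miRNAs averaging 10 counts or more (colour), with bars at the medians. The members' medians are 0.40, -0.06 and -0.27 in animals 1, 2 and 3, and 5 members lie below -2 in animal 3.

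The scaling moved the sign for animal 2 and not for the others. With totals alone the median over all 391 miRNAs shifted to 0.15 in animal 2 and -0.14 in animal 3, and the members' medians became 0.42, 0.05 and -0.40 in animals 1, 2 and 3. Relative to the median of all miRNAs, the members lay 0.41, -0.11 and -0.27 away in animals 1, 2 and 3 with TMM and 0.41, -0.10 and -0.26 with totals. On the MEG3/RTL1-antisense side the median deviation in animal 3 was -0.58 over 10 members, and on the miR-379/miR-410 side it was -0.27 over 41. The summed level of the MEG3/RTL1-antisense side, unlike its median deviation, was not lowest in animal 3. That median draws on low counts, since miR-432-5p, miR-433-3p, miR-370-3p and miR-431 had 2, 3, 3 and 6 counts in animal 3. The deviations of the well-counted miR-136 and miR-337-3p in animal 3 were 0.75 and -0.05, and that of miR-493-5p was -1.04.

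The most variable of the well-counted members were miR-487b-3p, miR-381-3p, miR-299-3p, miR-376b-3p and miR-493-5p, with SDs of log2(TMM-scaled CPM + 1) of 1.78, 1.38, 1.33, 0.75 and 0.68. All 5 were lowest in animal 3. miR-487b-3p had 80.6, 38.4 and 5.81 CPM in animals 1, 2 and 3 (adjusted p = 3.16e-57). miR-381-3p had 1378, 825 and 176 counts (adjusted p = 2.37e-175), and miR-299-3p had 518, 408 and 74 counts (adjusted p = 1.21e-56). For miR-487b-3p and miR-381-3p animal 1 also exceeded animal 2, by 2.18-fold and 1.90-fold in TMM-scaled CPM, so that the spread of these members was not carried by animal 3 alone.

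Members at least 1 log2 unit below the other libraries in animal 3 numbered 9 of 51 (17.6%, against 16.9% of all miRNAs tested), which is close to the background of that library. They were the 5 above with miR-433-3p, miR-432-5p, miR-431 and miR-370-3p. Of these 9, 5 lay 2 units or more below (9.80%, against 6.65%), namely miR-487b-3p, miR-381-3p, miR-299-3p, miR-433-3p and miR-432-5p. The values of miR-433-3p, miR-432-5p and miR-370-3p in animal 3 rest on 3, 2 and 3 counts. No member lay 1 unit or more below the others in animal 1 or in animal 2, against 5.37% and 1.79% of all miRNAs tested.

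A smaller set ran the other way. The highest TMM-scaled level was in animal 3 for 12 of the 51 members (23.5%, against 39.6%). With totals alone the number was 7 (13.7%, against 32%), because miR-154-5p, miR-382-3p, miR-409-3p, miR-329-3p and miR-323b-3p were then highest in animal 2, and with DESeq2 size factors it was 14 (27.5%, against 42.5%). miR-136 led them with 167, 255 and 316 CPM (adjusted p = 1.45e-52), which is a rise of 2.04-fold from animal 1 to animal 3 in TMM-scaled CPM. miR-134-5p had 30.7, 44.0 and 44.2 CPM (adjusted p = 0.000698), and miR-409-3p had 17.9, 34.0 and 32.6 CPM (adjusted p = 4.49e-06), both lowest in animal 1. Which animal was lowest depended on the scaling for 5 of the 55 members. miR-493-3p had 6.97, 7.86 and 13.6 CPM (adjusted p = 0.000671). Of the 12, miR-369-5p, miR-382-3p, miR-329-3p, miR-494-3p and miR-323b-3p were not called by chi-square (adjusted p from 0.22 to 0.739). Among the members called, some were thus highest in animal 1 and others in animal 3. The test compares all 3 libraries at once and does not test a direction.

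Arm use was read inside each library, so that scaling cannot move it. A miRNA hairpin is cut into a 5p and a 3p arm, of which usually a single arm accumulates. Of the locus hairpins, 15 had both arms listed under the same name. The same arm dominated in all 3 libraries in 14 of them (93.3%), against 92.6% of the 122 hairpins of the table. The 3p arm dominated in 9 hairpins and the 5p arm in 5, namely those of miR-154, miR-299, miR-379, miR-411 and miR-493. The miR-376a hairpins were left out, because their 3p arm has 1 row and their 5p arm has 2.

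**Figure D4:**
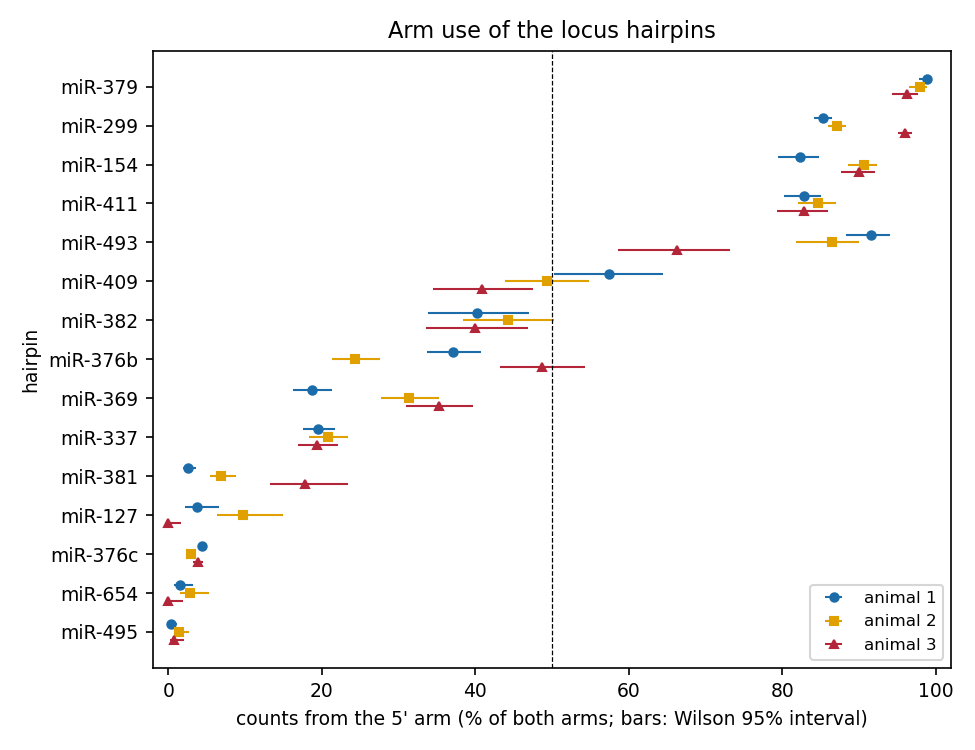
Share of the 5p arm among the counts of both arms for the 15 locus hairpins in the 3 libraries, with 95% Wilson intervals as bars and a dashed line at equal use. Most hairpins lie far from the line, miR-409 crosses it, and for miR-381, miR-299 and miR-493 animal 3 (triangles) lies away from the other animals.

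The most one-sided hairpins were those of miR-495, miR-654 and miR-127, ranked by the mean log2 ratio of the arms after adding 0.5 to each count. The place of miR-127 rests on its 0 count in animal 3, since by mean share its minor arm (4.51%) lay above that of miR-376c (3.72%), and the 5p share of miR-379 was 97.7% ± 1.30 (SD, n = 3). The 5p arm of miR-495 took 0.370% (95% Wilson interval 0.126 to 1.08), 1.41% (0.745 to 2.66) and 0.718% (0.244 to 2.09) of the counts of both arms in animals 1, 2 and 3. For miR-654 the 5p share was 1.57% (0.764 to 3.21) and 2.82% (1.49 to 5.27) in animals 1 and 2. Animal 3 had 0 of 198 counts, with an upper Wilson limit of 1.90%. For miR-127 the 5p share was 3.75% (2.11 to 6.60) and 9.78% (6.28 to 14.9) in animals 1 and 2. Animal 3 had 0 of 238 counts, with an upper Wilson limit of 1.59%. miR-127-3p was thus the major arm in each library, by a margin that differed between animals.

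The most balanced hairpins were those of miR-409, miR-382 and miR-376b. miR-409 was the locus hairpin whose dominant arm differed between animals. Its arms had 104 and 77 counts (5p and 3p) in animal 1, 156 and 160 in animal 2, and 89 and 129 in animal 3. The 5p share was 57.5% (95% Wilson interval 50.2 to 64.4), 49.4% (43.9 to 54.9) and 40.8% (34.5 to 47.5), so the intervals of animals 1 and 3 did not overlap and lay on either side of equal use. For miR-382 the 5p share was 40.2% (33.8 to 47.0), 44.2% (38.4 to 50.2) and 40.0% (33.5 to 46.8), with no difference between animals beyond counting error. For miR-376b it was 37.1% (33.7 to 40.7), 24.3% (21.3 to 27.6) and 48.7% (43.2 to 54.2), but its 5p counts are those shared with miR-376c-5p.

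Several hairpins kept their dominant arm while the balance shifted, and those described here were picked after their values were seen. The 5p arm of miR-381, the minor arm, had 37, 61 and 38 counts in animals 1, 2 and 3, while its 3p arm fell from 1378 to 176. Its 5p share was 2.61% (95% Wilson interval 1.90 to 3.58), 6.88% (5.40 to 8.74) and 17.8% (13.2 to 23.4). In miR-299 the minor 3p arm was the one that was low in animal 3, and the 5p share was 85.3% (84.1 to 86.5), 87.1% (85.9 to 88.2) and 96.0% (95.04 to 96.8). In miR-493 the 5p share was 91.6% (88.3 to 94.1), 86.4% (81.8 to 90.0) and 66.3% (58.6 to 73.1). In each of these hairpins the arms changed unequally between animal 3 and the other animals. Shifts in that library were not particular to the locus. Outside it, the 5p share of miR-361 was 62.9, 55.8 and 11.8% in animals 1, 2 and 3. That of miR-107 was 1.39, 1.60 and 20.6%, while that of miR-660 stayed at 93.0, 93.9 and 93.2%. How many hairpins of the table shifted was not counted.

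The hairpins of miR-337 and miR-411 held their balance. The 5p share of miR-337 was 19.5% (95% Wilson interval 17.6 to 21.7), 20.7% (18.3 to 23.4) and 19.4% (16.9 to 22.1) in animals 1, 2 and 3. That of miR-411 was 82.8% (80.2 to 85.0), 84.7% (82.0 to 87.0) and 82.9% (79.3 to 85.9). In miR-337 and miR-411 the arms moved in step while the level of the hairpin differed between animals. In TMM-scaled CPM both arms of each hairpin were highest in animal 1. Those of miR-411 were lowest in animal 3, and those of miR-337 were lowest in animal 2. For miR-411-3p animals 2 and 3 were close, at 24.2 and 23.1 TMM-scaled CPM, and which animal was lowest depended on the scaling. miR-369 shifted already between animals 1 and 2, with a 5p share of 18.7% (16.3 to 21.3), 31.3% (27.6 to 35.2) and 35.2% (31.0 to 39.7), while miR-369-3p was called different between the libraries (adjusted p = 2.8e-47) and miR-369-5p had 39.5, 38.2 and 40.4 CPM. miR-154 shifted between the same animals, with a 5p share of 82.3% (79.5 to 84.7), 90.6% (88.6 to 92.3) and 90.0% (87.6 to 92.0), and its minor arm miR-154-3p had 143, 87 and 72 counts. That of miR-376c, whose 5p counts are shared, was 4.34% (3.86 to 4.88), 3.00% (2.59 to 3.47) and 3.82% (3.27 to 4.46), so animals 1 and 2 differed beyond counting error. For miR-379 it was 98.9% (97.8 to 99.4), 98.0% (96.5 to 98.8) and 96.3% (94.3 to 97.6), and animals 1 and 3 did not overlap.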

How the data were processed

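Small RNA from the kidney cortex of 3 monkeys was sequenced, and samples were assigned to 1 group with replicate numbers from the sample titles. Whether these numbers mark anything beyond separate animals is not stated. Reads were mapped by the authors to M. fascicularis miRNAs with 0 mismatches, per the file headers, and they deposited whole-number read counts for miRNAs with at least 15 reads. A read with a base changed by RNA editing, which is known for the miR-376 family, would be missed by such mapping. The aligner, trimming and miRNA release are not given in the sources used here. The authors also deposited a normalized signal made with edgeR per the file headers. It equalled the raw count times 1 factor per library (0.989, 0.951 and 1.06) and was used only as an alternative. All 55 members are paired there with a human miRNA. The reads carry no stated molecular identifiers, so intervals and floors (3 counts) cover counting error only.

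TMM factors from edgeR 4.0.16 (R 4.3.3) were 1.01, 1.05 and 0.940, computed over all 432 rows. Tests and intervals used scipy 1.17.1, and size factors used DESeq2 1.42.0. The chi-square test was tested on simulated data. Log2 deviations use a pseudocount of 1 on TMM-scaled CPM. Members and lists were chosen with earlier results of these data known. Values in every animal are given for the 10 highest members, the 5 most variable with a mean count of at least 100, the 3 most and 3 least one-sided hairpins, hairpins that changed arm, members at 0 counts and identical rows; grouping by shared seed could not be done, as no sequences were used. Further members are given to account for the locus. Alternatives were other scalings, filters, pseudocounts and units, all rows counted, and each animal left out.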

Additional observations from a re-analysis of the deposited data

How the results depend on the processing

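Of 62 recalculated values of 10 results, 57 moved by less than the SD between animals or, for counts of members or hairpins, by 1.5 times or less, and 5 moved further. Many could not have moved far, since shares with an animal left out and counts with an animal fewer are bounded by construction. The share of the 5 most abundant members, 58.5%, was 57.9% to 61.0% when 1 animal was left out, the highest value being the one without animal 1, where miR-154-5p replaced miR-381-3p among the 5. The 35 members called by chi-square became 19 to 31, with the lowest number without animal 1. The 16 members spanning more than 2-fold became 4 without animal 3, 9 without animal 1 and 16 without animal 2, and 9 at a mean count of at least 100, where fewer members enter. The cause of the changes with an animal left out was not tested. The median log2 deviation of the members in animal 2 changed sign with totals alone (0.05) and when animal 1 was left out (0.14), an alternative chosen after seeing the data, and stayed within the SD of the 3 medians. At 10 CPM in every library 31 members counted as detected. Low counts limit the 20 members below 10 CPM, and 12 of the 16 tested members not called averaged under 50 counts. No paired analysis was possible because all 3 libraries form a single group.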
